A study of Mus with 12 samples.

Results

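The genes described here encode the subunits of oxidative phosphorylation (OXPHOS), the nuclear-encoded building blocks of complexes I to V of the inner mitochondrial membrane. They were chosen by gene symbol, as rows named for an Ndufa, Ndufb, Ndufc, Ndufs or Ndufv gene, for Sdha to Sdhd, for Cyc1 or a Uqcr gene, for a lettered Cox5 to Cox8 subunit such as Cox5a or for an Atp5 gene, and only where the row held an annotated Ensembl transcript. A row is 1 locus as the authors assembled it. The table of the implantation stage held 100 such rows of 87235, and the table of the labor stage held 85 of 40787. Of the 100 rows, 15 were pseudogenes. The remaining 85 comprised 38 of complex I, 4 of complex II, 9 of complex III, 17 of complex IV and 17 of complex V. Of the 85 rows of the labor stage, 3 were pseudogenes and 82 were not, with 37, 4, 9, 14 and 18 rows in complexes I to V. The symbol prefix also took in Atp5s and Atp5sl, whose products are not subunits of the enzyme.

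Oxidative phosphorylation passes electrons from NADH through complex I, or from succinate through complex II, to coenzyme Q, complex III, cytochrome c and finally complex IV, where oxygen is reduced. The proton gradient built on the way drives complex V, the ATP synthase. Most subunits are encoded in the nucleus and have to be made in step with a small set encoded by mitochondrial DNA. Several subunits of complex IV and 1 neighbor of complex I exist as isoforms that differ between tissues, including forms typical of striated muscle, of testis and of low oxygen. In the uterus, the contracting myometrium and the decidualizing endometrium both draw on mitochondrial ATP.

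The data came from whole uteri of pregnant ICR mice, an outbred stock, with 3 mice on each of 4 days and 1 mouse per library. E0.5 and E4.5 form the implantation stage, and E15.5 and E18.5 form the labor stage. The mice carried no engineered allele and received no agent, and the sources give their age as 8 weeks or as 60 days at mating. The study looked for RNAs that progesterone, a hormone whose level changes around implantation and around labor, might regulate, and the 2 comparisons are E0.5 against E4.5 and E18.5 against E15.5. A uterus collected whole is a mixture of smooth muscle, stroma, epithelium, blood and, later, tissue of the conceptus, and in such samples fewer cells of a type and less RNA per cell cannot be told apart.

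Libraries of the implantation stage held between 58020989 and 70906881 counts, and the depth of the labor stage is unknown, because its table gives FPKM only, which scales fragments by transcript length and by library size. The 2 tables were assembled and normalized separately, so levels of one were not compared with levels of the other. Smooth muscle markers (Acta2, Actg2, Myh11, Cnn1, Tagln, Des and Smtn) were present in every library, but their summed level in the library labelled E4.5 mouse 3 was 206 FPKM, against 798 to 1214 FPKM in the other libraries of the implantation stage. Markers of corpus luteum and adrenal tissue summed to 1325 FPKM in that library and to 3.95 to 6.10 FPKM in the others, and 5 of the 6 genes were highest there. Hsd3b1, a steroid-forming enzyme, was at 519 FPKM in it and at 0.0368 to 0.0541 FPKM in the rest, whereas Cyp11b1, the adrenal enzyme of this list, was at 0. In the labor stage, E15.5 mouse 1 stood apart, with 3.40 FPKM of yolk sac and liver markers against 128 to 1077 FPKM and with 1342 FPKM of Prl8a2, a prolactin-family gene of the decidua, against 40.2 to 86.02 FPKM. The other 6 markers of stroma and decidua summed to 723 FPKM in it and to 798 to 926 FPKM in the rest. Medians of the complexes and the fold changes discussed are given without these 2 libraries as well where that moved them by over 1.5 times. Epithelial markers (Epcam, Cdh1, Krt8, Krt18 and Krt19) differed between the days in both stages, with sums of 215 to 255 FPKM at E0.5, of 72.2 to 150 FPKM at E4.5, of 197 to 411 FPKM at E15.5 and of 593 to 819 FPKM at E18.5.

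Within a library, OXPHOS subunit RNAs were abundant and tended to be high or low together. Subunit rows other than pseudogenes summed to 998, 938 and 1157 FPKM at E0.5 and to 1048, 974 and 1472 FPKM at E4.5. Only E4.5 mouse 3 lay outside the range of the E0.5 libraries. As a share of the summed FPKM of protein-coding rows, the members held 1.22%, 1.15% and 1.29% at E0.5 and 1.25%, 1.16% and 1.604% at E4.5. In the labor stage the sums were 2762, 1720 and 2212 FPKM at E15.5 and 2186, 1857 and 2057 FPKM at E18.5. The E18.5 libraries all fell inside the range of the E15.5 libraries, whose own highest and lowest sums were 2762 and 1720 FPKM. The shares were 1.23%, 0.881% and 1.04% at E15.5 and 1.01%, 0.940% and 0.987% at E18.5.

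**Figure D1:**
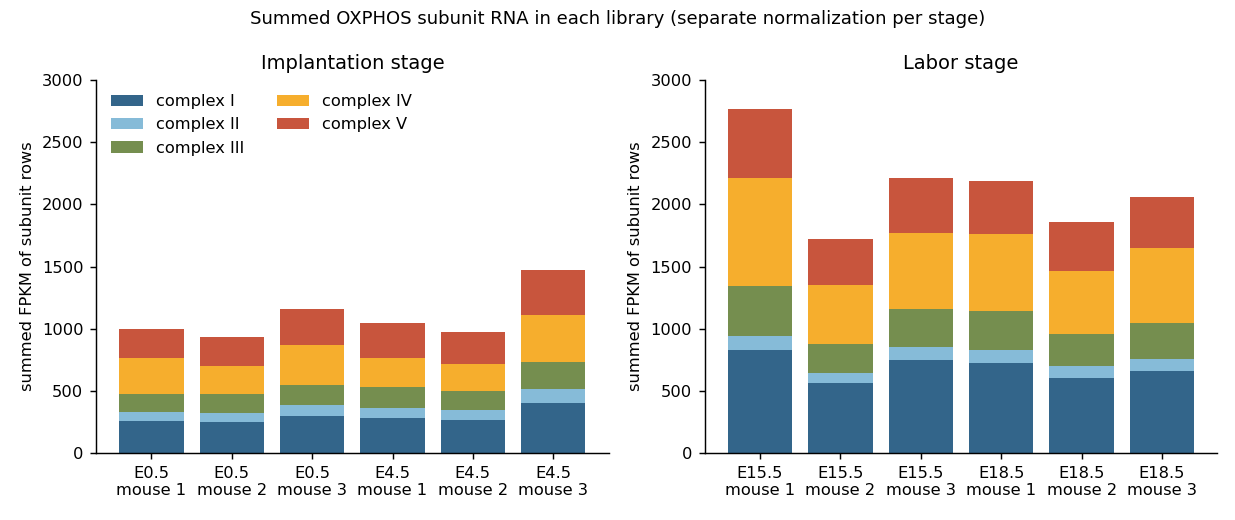
Summed FPKM of OXPHOS subunit rows (pseudogenes left out) in each library, stacked by complex, with the implantation stage on the left and the labor stage on the right. The tallest bars are E4.5 mouse 3 (1472 FPKM) and E15.5 mouse 1 (2762 FPKM), and the days otherwise overlap.

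The same 2 libraries were the highest for most single subunits. E4.5 mouse 3 gave the highest value of the 6 libraries in 58 of 82 tested subunit rows (70.7%), against 38.6% of tested protein-coding rows. E15.5 mouse 1 gave the highest value in 55 of 81 rows (67.9%), against 29.7% of protein-coding rows. It gave the lowest value in 6 of the 81, against 32.8% of protein-coding rows. E15.5 mouse 2 gave the lowest value in 51 of the 81, against 19.0% of protein-coding rows. A difference between mice of the same day thus ran through all 5 complexes in both stages. The luteal and adrenal markers of E4.5 mouse 3 and the Prl8a2 level of E15.5 mouse 1 were also the highest of their stage. Each of these matches rests on 1 library. Among the other implantation libraries, E0.5 mouse 3 had the highest subunit sum, 1157 FPKM, but the lowest luteal and adrenal sum, 3.95 FPKM. Erythroid markers had their highest sums in the same 2 libraries. The sum was 704 FPKM in E4.5 mouse 3 and 63.6 to 388.5 FPKM in the other implantation libraries. All 4 tested markers were highest in E4.5 mouse 3. At labor it was 1676 FPKM in E15.5 mouse 1 and 543 to 1462 FPKM in the other libraries, with 3 of 6 highest in E15.5 mouse 1. The other 3 were highest in E15.5 mouse 2, whose sum was 1462 FPKM and which was lowest in most subunit rows. All tested erythroid markers had fold changes below 0 in both comparisons, with medians of -1.06 (-0.40 without E4.5 mouse 3) and -0.62. The part of these markers in the subunit levels was not tested.

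**Figure D2:**
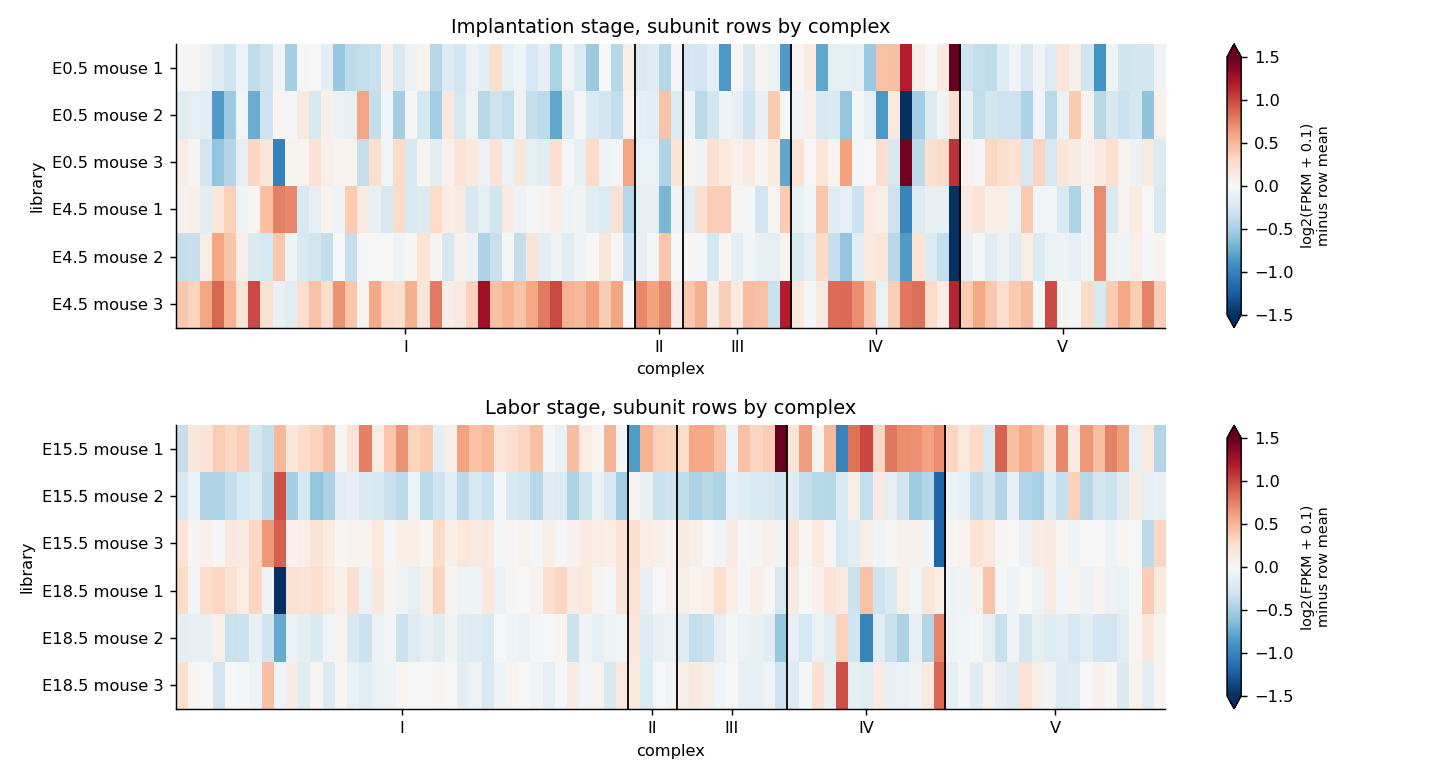
Deviation of each OXPHOS subunit row from its own mean over the 6 libraries of a stage, as log2(FPKM + 0.1), with rows as columns grouped by complex and libraries as lines; red is above the mean and blue below, and values past 1.5 are drawn at the end of the scale. The line of E4.5 mouse 3 is red in most columns (highest in 58 of 82 rows), as is that of E15.5 mouse 1 (55 of 81), while E15.5 mouse 2 is mostly blue.

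Between E0.5 and E4.5, no OXPHOS subunit passed an adjusted p of 0.05. Fold changes of subunits of complexes I, II, III and V were mostly below 0 at E0.5 and small, and those of complex IV were as often above as below. All 5 epithelial markers had fold changes above 0 in the same comparison (median log2 fold change 1.14, 2 past the adjusted p). All 7 smooth muscle markers were above 0 too (median 0.41, or -0.07 without E4.5 mouse 3). Of 7 stroma and decidua markers, 5 were below 0 (median -0.58, or -1.14 without that library, 1 past the adjusted p). The part of these markers in the subunit values was not tested. Counts were tested by quasi-likelihood in edgeR, with p-values adjusted after Benjamini and Hochberg over all 59732 rows that averaged at least 0.1 FPKM, and 94 members entered, 82 of them not pseudogenes. By the criterion of the study, a log2 fold change of at least 1 in either direction with an unadjusted p under 0.05, 2 of the 82 were called, Ndufa12 and Uqcrq, both lower at E0.5, where 12.2% of all tested rows were called. By the adjusted p the count was 0 of 82, where 1.22% of all rows passed. An unadjusted p under 0.05 was found for 10 of the 82 (12.2%), 1 higher and 9 lower, where 17.0% of all rows and 26.8% of protein-coding rows had one. DESeq2 on the same counts gave an adjusted p under 0.05 for 3 of the 82 (3.66%), Ndufa12, Ndufa13 and Atp5g1, and for the pseudogene Ndufa12-ps, where 9.99% of all rows with an adjusted p passed. The FPKM of the days did not overlap for 16 of the 82 rows (19.5%), 3 higher and 13 lower at E0.5, where 25.2% of all tested rows did not overlap. By these tests and by overlap, each share lay below that of all tested rows. The 10 rows with an unadjusted p under 0.05 became 8 without E4.5 mouse 3, 3 higher and 5 lower, and the rows called by the criterion were then Ndufa12 and Cox8b. They became 3 without E0.5 mouse 1, 5 without E0.5 mouse 2, 7 without E0.5 mouse 3 or E4.5 mouse 1 and 12 without E4.5 mouse 2.

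The median log2 fold change of the 82 rows, E0.5 minus E4.5, was -0.22, with 66 rows below 0, beside a median of -0.007 over all tested rows and -0.16 over tested protein-coding rows. Without E4.5 mouse 3 it was -0.07, with 49 rows below 0 and a protein-coding median of -0.04. Fold changes were small for most subunits, with 62 of 82 within 0.5 of 0 on the log2 scale (75.6%), against 54.6% of protein-coding rows. The subunits were also more abundant than most genes: the median member, at 9.20 FPKM on average, exceeded 88.4% of tested protein-coding rows.

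**Figure D3:**
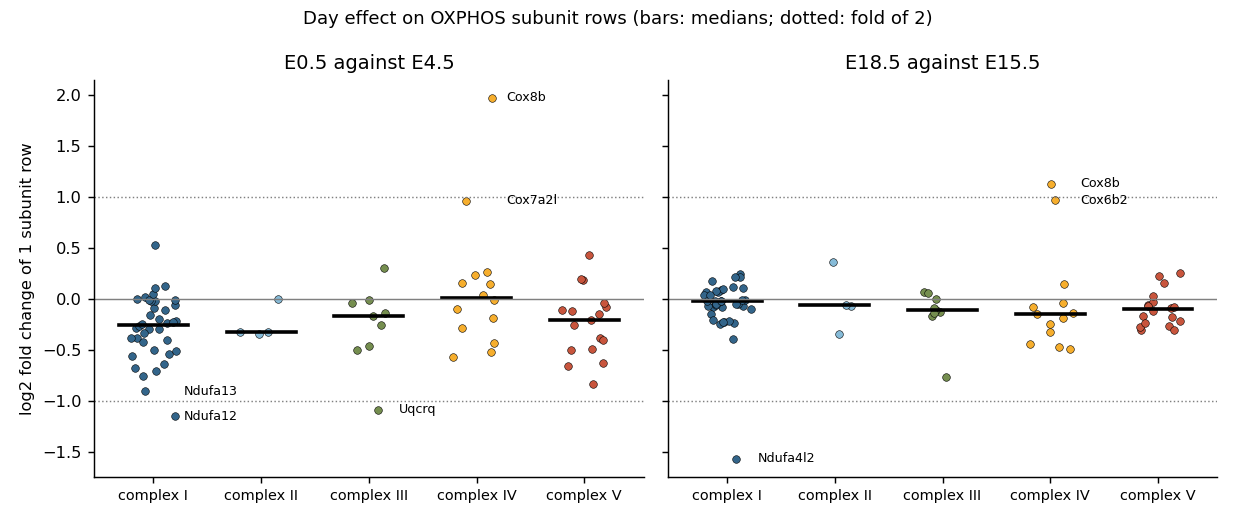
Fitted log2 fold change of each tested OXPHOS subunit row (pseudogenes left out), by complex, for E0.5 against E4.5 on the left and E18.5 against E15.5 on the right; bars are medians and dotted lines mark a log2 fold change of 1 in either direction. Most points lie within 0.5 of 0, and the labelled points are those more than 0.9 from 0.

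Complex I, the NADH dehydrogenase, had the most members, 38 tested rows with a median of -0.26 and 33 below 0, or -0.10 and 25 without E4.5 mouse 3. All 7 core subunits, which carry the flavin, the iron-sulfur clusters and the quinone site, were below 0, with a median of -0.30 (-0.12 with 6 below 0 without E4.5 mouse 3). Of these, Ndufs3 had a log2 fold change of -0.51 ± 0.19 (SE, adjusted p = 0.249) and Ndufv2, which holds an iron-sulfur cluster of the NADH-oxidizing module, had one of -0.56 ± 0.21 (adjusted p = 0.254); both were named after their values were seen, for an unadjusted p under 0.05. Without E4.5 mouse 3 their unadjusted p-values were 0.0735 and 0.0788. The 31 accessory rows had a median of -0.25, and 26 were below 0, against -0.075 and 19 without that library.

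Among the accessory subunits, Ndufa13 (also known as GRIM-19, a membrane-arm subunit first described in cell death) separated the days most cleanly. It was at 1.12, 0.925 and 1.004 FPKM at E0.5 and at 1.82, 1.89 and 2.05 FPKM at E4.5. Every E4.5 library was above every E0.5 library, by more than the spread within either day. The log2 fold change was -0.91 ± 0.22 (SE), with an adjusted p of 0.109 in edgeR, of 0.00298 in DESeq2, and of 0.0840 in edgeR without E4.5 mouse 3. This row, at chr8:69887788-69902558 on the minus strand, merges Ndufa13 with its neighbor Yjefn3, so its counts are not those of Ndufa13 alone. It was named after its values were seen.

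Ndufa12, an accessory subunit next to the NADH-oxidizing arm, was at 1.04, 0.621 and 0.764 FPKM at E0.5 and at 1.36, 1.86 and 2.25 FPKM at E4.5. The days did not overlap, and the log2 fold change was -1.15 ± 0.33 (SE, adjusted p = 0.152, edgeR). The row spans chr10:94198720-94221443 on the plus strand and rests on 73 to 289 counts per library. Inside this span, 6 further rows carry the name without an annotated transcript and are not members. The largest of them held more counts, 1296, 1015 and 1236 at E0.5 and 1527, 1428 and 1470 at E4.5. A processed copy, Ndufa12-ps at chr5:130188395-130188796, had far higher levels, with 11.7, 13.6 and 21.0 FPKM at E0.5 and with 39.3, 28.7 and 41.5 FPKM at E4.5, and its log2 fold change was -1.23 ± 0.30 (adjusted p = 0.107). The gene and its copy therefore moved the same way. Their sequences were not compared here, and reads that match both may have been assigned to either, so neither level is certain. Coordinates are those of the deposited table, in which all 100 members overlap the RefSeq gene of their name in GRCm38.

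The remaining named rows of complex I did not separate the days past the adjusted p. Ndufb6, a membrane-arm subunit named after its values were seen, was at 9.28, 8.68 and 11.2 FPKM at E0.5 and at 15.4, 12.9 and 21.5 FPKM at E4.5 (log2 fold change -0.76 ± 0.25, adjusted p = 0.202, edgeR). Ndufv3 had the highest fold change of the complex, 0.53 ± 0.23 (adjusted p = 0.304), with 2.87 to 4.22 FPKM at E0.5 and 2.04 to 2.78 FPKM at E4.5. Its direction was opposite to that of the 7 core rows. Ndufa4, named for complex I but since assigned to complex IV, was at 6.06 to 8.61 FPKM at E0.5 and 6.28 to 10.4 FPKM at E4.5. Ndufa4l2, its relative that is induced in low oxygen, was at 1.80, 1.94 and 0.885 FPKM at E0.5 and at 3.27, 2.53 and 1.76 FPKM at E4.5, giving a log2 fold change of -0.71 ± 0.43 (adjusted p = 0.434) and overlapping days.

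Complex II, the succinate dehydrogenase shared with the citric acid cycle, has 4 subunits, and all of them were below 0 with a median of -0.33, or -0.05 with 3 below 0 without E4.5 mouse 3. Sdha, the flavoprotein, was at 17.96, 19.0 and 19.5 FPKM at E0.5 and at 19.0, 19.3 and 34.7 FPKM at E4.5. The first 2 libraries of E4.5 lay within the range of E0.5 and only the third lay above it (log2 fold change -0.35 ± 0.25, adjusted p = 0.512, edgeR, and -0.04 without it). Sdhd, a membrane anchor and the most abundant of the 4, was the closest to 0 at -0.01 ± 0.16, or 0.02 without that library.

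Complex III, the cytochrome bc1 complex, had 9 rows with a median of -0.17 and 8 below 0, or -0.11 and 6 without E4.5 mouse 3. Uqcrq, a small subunit that binds near the ubiquinone site, was at 6.95, 12.7 and 7.31 FPKM at E0.5 and at 16.6, 13.1 and 28.6 FPKM at E4.5. The days did not overlap, though 12.7 and 13.1 FPKM nearly met. Its log2 fold change was -1.09 ± 0.37 (SE, adjusted p = 0.210, edgeR) and -0.74 without E4.5 mouse 3 (adjusted p = 0.234), which is outside the fold criterion. Uqcr10, named after its values were seen, had a log2 fold change of -0.51 ± 0.21 (adjusted p = 0.287) with no overlap. Uqcrh, the hinge protein that binds cytochrome c1, had the highest fold change of the complex, 0.30 ± 0.22 (adjusted p = 0.511), or 0.19 without E4.5 mouse 3.

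Complex IV, cytochrome c oxidase, had 14 tested rows, with 7 above and 7 below 0 and a median of 0.01, or 0.17 with 4 below 0 without E4.5 mouse 3. Among those below 0 was Cox5b-ps (-0.53 ± 0.51), which the table types as protein-coding and describes as a pseudogene. It had no row with an unadjusted p under 0.05, and 1 without that library (Cox8b). The abundant ubiquitous isoforms differed little: Cox7c averaged 65.6 ± 10.4 (SD, n = 3) in the E0.5 libraries and 64.6 ± 11.96 FPKM in those of E4.5, and Cox8a averaged 55.5 ± 6.35 and 46.7 ± 7.79 FPKM. Cox6a1 was at 43.3, 41.0 and 49.2 FPKM at E0.5 and at 42.0, 37.6 and 85.6 FPKM at E4.5. The high mean at E4.5 came from mouse 3, and the log2 fold change went from -0.28 to 0.14 without it. Cox6b1 went from -0.10 to 0.38 in the same way. Cox7a2, at 17.2 to 31.4 FPKM, had a log2 fold change of 0.23 ± 0.27 (0.48 without E4.5 mouse 3). Cox7b had the lowest of the complex, -0.57 ± 0.28 (adjusted p = 0.351), and -0.28 without that library. Cox7c likewise went from 0.04 to 0.17.

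The isoforms of complex IV typical of striated muscle and testis were low or not detected at the implantation stage. Cox6a2, Cox7b2 and Cox8c averaged under 0.1 FPKM and were not tested, and Cox8c had no count in any library. Cox7a1, the muscle form of Cox7a2, was at 0.532 to 1.45 FPKM in a row merged with Gm5113, and its log2 fold change was -0.02 ± 0.38 (-0.12 without E4.5 mouse 3). Cox6b2, the testis form, was at 1.25 to 2.62 FPKM, giving a log2 fold change of -0.19 ± 0.36 that became 0.18 without that library. Cox8b, known from muscle and brown fat, was at 2.45, 0.526 and 1.01 FPKM at E0.5 (76, 15 and 32 counts) and at 0, 0 and 1.06 FPKM at E4.5 (0, 0 and 31 counts). The 2 libraries without a count were the ones with the lowest sums of fat markers, 25.5 and 9.97 FPKM, while the library with the most Cox8b had the highest, 231 FPKM. Ucp1, the defining gene of brown fat, was at 1.10 FPKM in that library and at 0 in the other 5, but of the 5 brown fat markers only Ucp1 was highest there, and 2 each were highest in E0.5 mouse 2 and in E4.5 mouse 3. The sums of the brown fat markers were 4.86, 4.32 and 3.43 FPKM at E0.5 and at E4.5 they were 0.573, 0.955 and 2.63 FPKM. The log2 fold change of Cox8b was 1.97 ± 1.75 (adjusted p = 0.604, edgeR). With E4.5 mouse 3 left out, both remaining E4.5 libraries have no count and the fitted fold change is no bound. The part of fat in these levels was not tested.

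Cox7a2l, a Cox7a relative that joins complexes III and IV into supercomplexes, was the most variable abundant member. It was at 29.4, 4.23 and 35.5 FPKM at E0.5 and at 6.45, 7.15 and 22.4 FPKM at E4.5. Each day held libraries both under 8 and over 20 FPKM, and the log2 fold change of 0.96 ± 0.80 (adjusted p = 0.574) had an SE nearly as large as itself. It was 1.74 without E4.5 mouse 3 (adjusted p = 0.263).

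Complex V, the ATP synthase, had 17 tested rows with a median of -0.20 and 14 below 0, or -0.088 and 11 without E4.5 mouse 3. All 5 rows of the catalytic F1 head were below 0, and 4 were without that library. Atp5a1, the F1 alpha subunit and the most abundant member, averaged 71.7 ± 9.12 (SD, n = 3) in the E0.5 libraries and 86.2 ± 14.9 FPKM in those of E4.5. Atp5b, the catalytic beta subunit, was at 30.9, 30.6 and 39.2 FPKM at E0.5 and at 45.3, 39.2 and 59.5 FPKM at E4.5. The highest E0.5 library and the lowest E4.5 library were nearly equal, and the log2 fold change was -0.50 ± 0.21 (adjusted p = 0.287, edgeR).

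The 3 genes for the c subunit, which encode the same mature protein of the membrane rotor, did not follow one pattern. Atp5g1 was at 3.62, 3.08 and 3.59 FPKM at E0.5 and at 5.70, 4.64 and 5.97 FPKM at E4.5. The days were well apart, and the log2 fold change was -0.66 ± 0.18 (SE, adjusted p = 0.137 in edgeR, 0.0363 in DESeq2), or -0.61 without E4.5 mouse 3. Atp5g3 was at 18.1, 15.6 and 17.4 FPKM against 20.2, 19.3 and 40.9 FPKM, and its fold change went from -0.63 ± 0.30 to -0.23 without E4.5 mouse 3. Atp5g2 pointed the other way, at 0.18 ± 0.18, in a row merged with Mir688. Atp5j, the F6 subunit of the peripheral stalk, was the only one of the 82 rows with an unadjusted p under 0.05 that was higher at E0.5, at 3.07, 3.83 and 3.16 FPKM against 2.09, 2.61 and 2.84 FPKM (log2 fold change 0.43 ± 0.18, adjusted p = 0.289). Atp5k, the e subunit, had the lowest fold change of the complex other than pseudogenes, -0.84 ± 0.52, on 31 to 103 counts. The pseudogene Atp5pb-ps was lower still, at -0.95 ± 0.45 (adjusted p = 0.334).

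**Figure D4:**
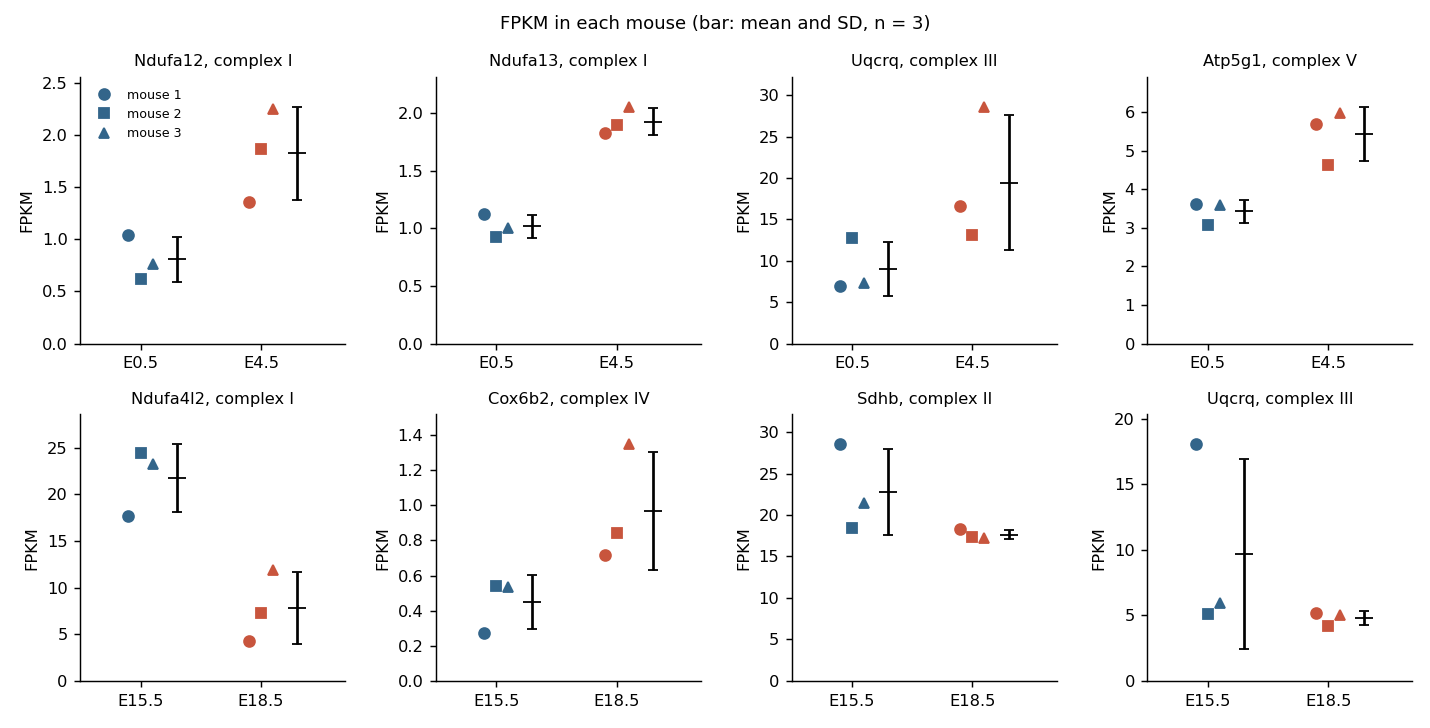
FPKM of 8 comparisons of single subunits, with each symbol a mouse and the bar beside it the mean and SD of the day (n = 3); E0.5 and E4.5 in the upper row, E15.5 and E18.5 in the lower row. The days do not overlap for Ndufa12, Ndufa13, Uqcrq and Atp5g1 at implantation, nor for Ndufa4l2, Cox6b2 and Sdhb at labor, whereas 1 mouse at 18.1 FPKM sets the E15.5 mean of Uqcrq.

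Between E18.5 and E15.5, most OXPHOS subunits differed little, and with all libraries in, Ndufa4l2, which was lower at E18.5, moved the furthest. The values, log2(FPKM + 0.1), were tested with limma (trend, Benjamini-Hochberg adjustment over 30928 rows), and 84 members entered, 81 of them not pseudogenes. By the criterion of the study 1 of 81 was called, Ndufa4l2, where 6.05% of all tested rows were called. The adjusted p was passed by 0 of 81, where 0.0259% of all rows passed. An unadjusted p under 0.05 was found for 2 (2.47%), Cox6b2 higher and Ndufa4l2 lower at E18.5, where 12.2% of all rows had one. This count was 5 without E15.5 mouse 2 (1 higher, 4 lower), 3 without E15.5 mouse 3, and 1 without E18.5 mouse 2 or E18.5 mouse 3. The days did not overlap for 3 rows (3.70%), where 19.9% of all rows did not overlap. Of the 81 rows, 77 lay within 0.5 of 0 on the log2 scale (95.1%), against 80.3% of protein-coding rows. All 5 epithelial markers had fold changes above 0 (log2 fold changes of 0.54 to 1.61, none past the adjusted p), as had 3 of 4 tested trophoblast markers, whose sums were 3.07 to 11.7 FPKM at E15.5 and 37.7 to 57.3 FPKM at E18.5. Their part in the subunit values was not tested. The median member averaged 15.3 FPKM, above 89.7% of protein-coding rows.

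The median log2 fold change, E18.5 minus E15.5, was -0.07, with 58 of 81 rows below 0, beside 0.02 over all tested rows and 0.04 over protein-coding rows. This small shift turned with 1 library. Without E15.5 mouse 1 the median was 0.05, with 29 rows below 0, and without E15.5 mouse 2, the library lowest in most rows, it was -0.25. The medians of complexes I to V were -0.03, -0.06, -0.11, -0.15 and -0.10, and without E15.5 mouse 1 all of them were above 0, at 0.03 to 0.07.

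Ndufa4l2 encodes a relative of Ndufa4 that is known as a target of hypoxia-inducible factor and as a brake on complex I activity. It was at 17.7, 24.5 and 23.2 FPKM at E15.5 and at 4.26, 7.33 and 11.9 FPKM at E18.5. The lowest E15.5 library was above the highest E18.5 library, and the means were 21.8 ± 3.63 and 7.84 ± 3.86 FPKM (SD, n = 3). The log2 fold change was -1.57 ± 0.36 (SE), with an unadjusted p of 0.00326 and an adjusted p of 0.177 (limma). It stayed between -1.93 and -1.20 when each library was left out in turn, with an adjusted p of 0.107 to 0.432, and it was -1.71 without E15.5 mouse 1. Ndufa4 itself was at 18.4 to 38.2 FPKM at E15.5 and 19.7 to 33.2 FPKM at E18.5, a log2 fold change of 0.07 ± 0.33 (-0.09 without E15.5 mouse 1). With the exception of Ndufa4l2, the 37 rows of complex I lay between -0.39 and 0.24, from Ndufb11 to Ndufa1, which were at -0.11 and 0.13 without E15.5 mouse 1.

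Cox6b2, the testis form of a complex IV subunit, was low at the labor stage but ordered by day. It was at 0.271, 0.538 and 0.533 FPKM at E15.5 and at 0.714, 0.844 and 1.35 FPKM at E18.5. All E18.5 libraries were above all E15.5 libraries, and the log2 fold change was 0.96 ± 0.35 (SE, adjusted p = 0.337, limma), or 0.71 without E15.5 mouse 1 (adjusted p = 0.524). The sperm markers of the fixed list had 3 rows in this table, with a summed level of at most 0.269 FPKM at E15.5 and 0 at E18.5. Its ubiquitous counterpart Cox6b1, the most abundant member of the table, averaged 146 ± 45.8 FPKM at E15.5 and 138 ± 19.8 FPKM at E18.5.

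Uqcrq stood out for its spread within E15.5. It was at 18.1, 5.08 and 5.91 FPKM at E15.5 and at 5.20, 4.18 and 5.01 FPKM at E18.5. The first E15.5 library was more than 10 FPKM above every other, and without it the log2 fold change went from -0.76 ± 0.46 to -0.19 (adjusted p = 0.543 with all libraries). Sdha went the opposite way in the same library, at 13.8, 25.5 and 29.5 FPKM at E15.5 against 28.6, 27.7 and 27.4 FPKM at E18.5, so that E15.5 mouse 1 was the lowest of the 6. Its log2 fold change went from 0.36 ± 0.28 to 0.03 without that library. Sdhb, the iron-sulfur subunit of the same complex, was at 28.5, 18.4 and 21.5 FPKM at E15.5 and at 18.3, 17.4 and 17.3 FPKM at E18.5. These days did not overlap, but only by the margin between 18.4 and 18.3 FPKM (log2 fold change -0.35 ± 0.17, adjusted p = 0.476, limma), and without E15.5 mouse 1 the fold change was -0.17.

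The other named rows of the labor stage did not separate the days. In complex IV, Cox6a1 (112 FPKM on average) had a log2 fold change of 0.14 ± 0.20, Cox8a (98.4 FPKM) of -0.08 ± 0.30 and Cox7a2l (107 FPKM) of -0.44 ± 0.26, with adjusted p-values of 0.798, 0.939 and 0.538 (limma). Without E15.5 mouse 1, Cox8a was at 0.21 and Cox7a2l at -0.15. Cox6c had the lowest fold change of the complex among rows with at least 1 FPKM, -0.49 ± 0.25 (adjusted p = 0.485), with 24.7 FPKM in E15.5 mouse 1 and 11.2 to 15.0 FPKM elsewhere, and the fold change was -0.21 without that library. Cox7a1 was at 0.490 to 2.25 FPKM, Cox7a2 at 3.90 to 6.05 FPKM in a row merged with Filip1, and Cox7b at 27.8 to 63.2 FPKM. Their log2 fold changes were -0.47, -0.25 and -0.32, and without E15.5 mouse 1 they were -0.09, -0.16 and -0.06. Cox8b was at 0.271, 0 and 0 FPKM at E15.5 and at 0.145 to 0.315 FPKM at E18.5. Its log2 fold change was 1.13 ± 0.60, or 1.76 without E15.5 mouse 1, where both remaining E15.5 libraries are at 0. Cox6a2 was listed above 0 in 1 library only and was not tested. In complex III, Uqcrb had the highest fold change, 0.07 ± 0.24 (0.30 without E15.5 mouse 1). In complex V, Atp5b (99.6 FPKM on average) was at -0.06 ± 0.14, and Atp5g1, Atp5g2 and Atp5g3 were at -0.03, -0.07 and -0.08, each smaller than its SE. Without E15.5 mouse 1 these 4 were at -0.001, 0.25, 0.14 and -0.01. Among complex V rows of at least 1 FPKM, Atp5s (0.25 ± 0.24, or 0.40 without that library) and the pseudogene Atp5l2-ps (-0.32 ± 0.37, or -0.0086) were the extremes.

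The 2 comparisons were then set against each other, since a gene that passes in one stage and not in the other has not been shown to differ between them. One-to-one matched rows existed for 74 subunits, 73 of them tested in both tables, and 41 of the 73 had fold changes below 0 in both comparisons, 3 were above 0 in both, 16 were below 0 for E0.5 and above 0 for E18.5, and 13 were the reverse. These counts rest on single libraries: without E4.5 mouse 3 the 4 counts were 31, 9, 10 and 23 in that order, and without E15.5 mouse 1 they were 20, 12, 37 and 4. By limma over the 12 libraries, the difference between the stages passed the adjusted p for 0 of 73, where 2.69% of the 20777 matched rows passed. An unadjusted p under 0.05 was found for 4 of them, where 18.2% of all matched rows had one. The 4 were Ndufa12 (difference of log2 fold changes -1.15 ± 0.38, adjusted p = 0.131), Atp5j (0.68 ± 0.25), Cox6b2 (-1.10 ± 0.47) and Ndufb6 (-0.73 ± 0.32). The limit on read assignment given above for Ndufa12 applies to its implantation row. At labor its row was at 17.9 to 31.9 FPKM, and the pseudogene members of that stage include no Ndufa12 copy. The matched rows of Ndufa12 may therefore not hold the same reads. Without E4.5 mouse 3 the unadjusted p was 0.0859 for Cox6b2 and 0.102 for Ndufb6, while it was 0.0294 for Atp5k and 0.0217 for Cox8b. Without E15.5 mouse 1 it was 0.0914 for Cox6b2, while it was 0.00653 for Atp5g1 and 0.0385 for Ndufs3. The count of 4 became 2 without E0.5 mouse 1 or E0.5 mouse 2, 5 without E15.5 mouse 1 and 6 without E4.5 mouse 2. Ndufa4l2, which had the same direction in both stages, differed by 0.87 ± 0.54 (adjusted p = 0.436).

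Genes that work beside the subunits were examined in fixed lists, which partly share the same direction at implantation. Electron carriers and subunits that the symbol rule did not take in numbered 8, of which 7 were tested; 2 of these 7 rows (Usmg5 and 2010107E04Rik) carry Atp5 names in the implantation table and are members there. Of the 7, 1 was called by the criterion (14.3%, beside 12.2% of all rows), Cycs, the electron carrier cytochrome c. It was at 3.34, 2.77 and 1.95 FPKM at E0.5 and at 5.46, 4.92 and 6.56 FPKM at E4.5, which gave a log2 fold change of -1.06 ± 0.25 (adjusted p = 0.0996, edgeR) with no overlap. The call was lost without E4.5 mouse 3 (-0.97) and without E0.5 mouse 3 (-0.89). Cox4i1, the largest nuclear-encoded subunit of complex IV, was at 0.28 ± 0.24, or 0.43 without E4.5 mouse 3. The 13 subunits encoded by mitochondrial DNA were listed at 0 in all 6 libraries of the implantation table, although they are among the most abundant RNAs of cells, and they are not analysed here.

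Among 48 assembly factors, which build the complexes without staying in them, 2 had an unadjusted p under 0.05 in the higher and 8 in the lower direction at E0.5 (20.8%, beside 17.0% of all rows and 26.8% of protein-coding rows), with a median of -0.26. These counts were 2 and 5 without E4.5 mouse 3. Ndufaf5, which helps to build complex I, was called by the criterion at -1.06 ± 0.35 (adjusted p = 0.196), but not without E4.5 mouse 3 (-0.87) or without E0.5 mouse 2 (-0.82). Of 18 genes of the TCA cycle and pyruvate dehydrogenase, 5 were lower by the unadjusted p (27.8%, near the share of protein-coding rows), or 3 without E4.5 mouse 3, and none was higher. The median was -0.34, and Pdhx (-1.04 ± 0.40, adjusted p = 0.255) was called, with 7.41 FPKM in E4.5 mouse 3 against 1.999 to 2.97 FPKM in the others and a log2 fold change of -0.44 without it. The regulators of mitochondrial gene expression numbered 19 tested, of which 1 was higher and 2 were lower (15.8%), or 2 and 3 without E4.5 mouse 3. Their median was -0.17. Ppargc1a, a coactivator of mitochondrial genes, was at 0.55 ± 0.37, or 0.35 without that library. E4.5 mouse 3 was the highest library for 27 of the 48 assembly factors, 13 of the 18 TCA cycle genes and 4 of the 19 regulators. Without it the medians of these 3 lists were -0.14, -0.17 and -0.12.

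The list of carriers, porins and import genes held the only row of these lists that passed the adjusted p. Hspd1, the mitochondrial chaperonin that folds imported proteins, was at 6.41, 6.63 and 6.54 FPKM at E0.5 and at 17.1, 14.7 and 23.1 FPKM at E4.5. The E0.5 values were nearly identical and all E4.5 values were above them, giving a log2 fold change of -1.47 ± 0.20 (adjusted p = 0.0310, edgeR). The fold change was -1.30 without E4.5 mouse 3 (adjusted p = 0.00701), but leaving out any other single library ended the call, with adjusted p-values of 0.0504 (without E4.5 mouse 2) to 0.167 (without E0.5 mouse 2). Its partner Hspe1 was at 16.1, 10.96 and 16.0 FPKM against 31.9, 21.8 and 35.6 FPKM, at -1.05 ± 0.25 (adjusted p = 0.109). In all, 6 of the 19 genes (31.6%, beside 17.0% of all rows and 26.8% of protein-coding rows) were lower by the unadjusted p and none was higher, with a median of -0.25 (-0.24 without E4.5 mouse 3). At the labor stage, none of the 111 tested rows of these lists had an unadjusted p under 0.05 (12.2% of all rows) or passed the adjusted p (0.0259% of all rows, limma), and the medians of the lists lay between -0.27 and 0.04, or between 0.01 and 0.12 without E15.5 mouse 1.

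**Figure D5:**
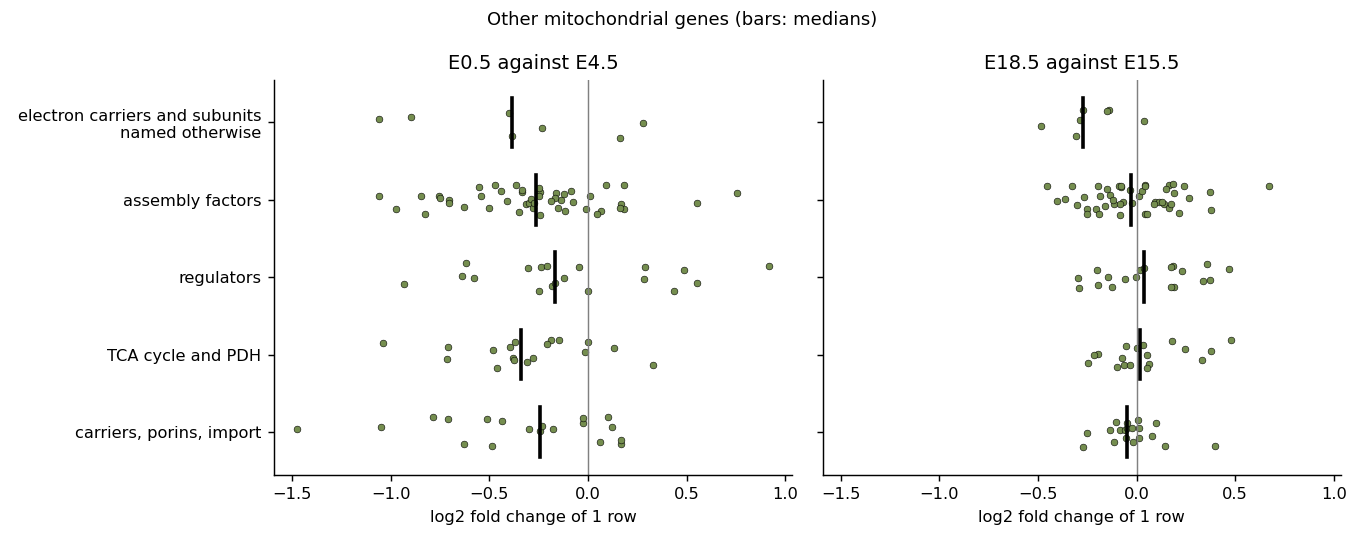
Log2 fold change of each tested gene of 5 fixed mitochondrial lists, for E0.5 against E4.5 on the left and E18.5 against E15.5 on the right, with bars at the medians. At implantation all 5 medians are below 0 (-0.39 to -0.17), and at labor they lie between -0.27 and 0.04.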

How the data were processed

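Per the labels, RNA of 12 ICR mouse uteri (4 groups of 3) was poly(A)-selected; the paper describes ribosomal depletion instead. After trimming (Cutadapt), alignment (Bowtie2, Tophat2) and assembly (StringTie), FPKM were estimated by the authors in Ballgown and deposited as 1 table per stage; the submitters' processing notes also name Bowtie 0.12.2, HISAT2 2.0, StringTie 1.3.0 and the builds mm8 and mm10. The implantation table also holds whole-number counts deposited by the authors, whose read assignment and use of strand are not given in the sources used here. Its 0.0001 was read as 0. Counts were tested with edgeR 4.0.16 (TMM), FPKM with limma 3.58.1 (trend) on log2(FPKM + 0.1), a scale that understates changes of low genes, in R 4.3.3, for rows averaging at least 0.1 FPKM, in a stage-wise fit over all such rows. The difference between the stages used limma over 12 libraries. Alternatives included DESeq2 1.42.0. The fits were tested on simulated data whose planted changes were larger than most of those reported here. No outlying library was simulated, so small changes and effects of a single library were not covered.

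Members and gene lists were chosen with earlier results of these data known. Named members were those past an adjusted p of 0.05, the highest and lowest fold change per complex among rows of at least 1 FPKM, tissue isoform pairs, the 5 most abundant, and those called by the criterion of the study. Ndufb1-ps and Cox5b-ps count as genes, as their type in the table is protein-coding, although the table's description calls Cox5b-ps a pseudogene. Errors written after a log2 fold change are SE and those after a mean FPKM are SD (n = 3). For edgeR the SE was derived, as the absolute log2 fold change over the square root of the F statistic. With 3 against 3 mice an exact permutation test cannot go below 0.1, so p-values come from these fits.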

Additional observations from a re-analysis of the deposited data

Results flagged for a closer look

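Beside the 100 members, the implantation table held 37 rows that carry an OXPHOS gene name without an annotated Ensembl transcript. These rows enter no count of members above. They were singled out as data outside the main measurement that nevertheless hold signal: 36 of the 37 had more than 3 counts in each of the 6 libraries, the limit that a count of 0 allows. Together they held 6243 to 9017 counts per library, against 149636 to 256679 counts for the members that are not pseudogenes. A single symbol, Ndufa12, had up to 6 such rows. All 37 were tested, and 0 were called by the criterion of the study (12.2% of all tested rows) or by the adjusted p of edgeR (1.22%). Which transcripts they stand for was not tested.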

How the results depend on the processing

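No alternative made a subunit pass the adjusted p at the labor stage or in the difference between the stages, and at the implantation stage only DESeq2 did (3 subunits). Calls by the criterion of the study rest on few rows. At implantation 2 subunits were called, and 1 was called with TMM factors from protein-coding rows, with upper-quartile factors and with the replicate block. Ndufa12 was called in all of these, and Uqcrq was the call that was lost. Leaving out each library in turn gave 1 to 3 calls: 1 (Ndufa12) without E0.5 mouse 1 or mouse 3, and 3 without E0.5 mouse 2, with Cox7a2l added. Without E4.5 mouse 3, Cox8b took the place of Uqcrq; its remaining E4.5 libraries had no count, so its fitted fold is no bound. At labor 1 was called, Ndufa4l2, and it was called in every alternative run. A second call was made with a pseudocount of 0.01 (Cox6b2, 2 in all) and when E15.5 mouse 2, E15.5 mouse 3 or E18.5 mouse 1 (Cox6b2) or E15.5 mouse 1 (Cox8b) was left out, so that these fits gave 1 to 2 calls. The median of the subunits ranged from -0.34 to -0.07 at implantation and from -0.25 to 0.05 at labor when a library was left out. The replicate numbers share a number only, since same-numbered libraries did not deviate together.

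Subunits with fold changes near 0 changed sign. At implantation, Sdhd came to 0.077 (TMM from protein-coding rows), 0.079 (upper-quartile) and 0.011 (at least 1 FPKM), and Cox7a1 to 0.063, 0.067 and 0.0048 in that order. At labor, Uqcrb came to -0.0063 and Ndufa4 to -0.0043 under 75th percentile scaling, and Cox8a to 0.049, Cox6b1 to 0.076 and Atp5b to 0.055 under quantile normalization. When a library was left out, the ranges at implantation were -0.13 to 0.079 for Sdhd, -0.37 to 0.18 for Cox6b2, -0.50 to 0.14 for Cox6a1, -0.26 to 0.31 for Cox7a1, -0.50 to 0.38 for Cox6b1 and -0.10 to 0.17 for Cox7c. At labor they were -0.15 to 0.30 for Uqcrb, -0.026 to 0.25 for Cox6a1, -0.34 to 0.14 for Atp5g2, -0.32 to 0.21 for Cox8a, -0.19 to 0.0019 for Atp5g3, -0.14 to 0.41 for Ndufa4, -0.27 to 0.19 for Cox6b1 and -0.26 to 0.25 for Atp5g1. The causes were not tested.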
